A study of Drosophila melanogaster with 6 samples.

Results

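The genes described here are 10 heat shock genes of Drosophila melanogaster: the 6 copies of Hsp70 (Hsp70Aa, Hsp70Ab, Hsp70Ba, Hsp70Bb, Hsp70Bbb and Hsp70Bc), Hsp68, and the small heat shock genes Hsp23, Hsp26 and Hsp27. They were taken by name from a count table of 17609 gene symbols, and all 10 had a row. The RNA came from the eye-antennal imaginal discs of larvae in the third instar, the epithelia from which the compound eye, antenna and head capsule of the adult arise. In 3 biological replicates, called dTet here, the larvae carried ey-Gal4, a driver active in the eye field, and UAS-dTet, through which Gal4 drives the only Tet dioxygenase gene of the fly. In the 3 control replicates ey-Gal4 was combined with W1118 in place of UAS-dTet, so both groups carried the driver. Per the labels, flies of both groups were maintained at 18 °C and the experiments were done at 25 °C; no heat treatment is named. The design asked how dTet overexpression in the developing eye changes gene expression, after it had worsened an eye phenotype with or without a mutant histone.

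Heat shock proteins are chaperones that bind unfolded proteins. Hsp70 proteins, of which Hsp68 is a close relative, bind and release their clients in cycles driven by ATP. The small heat shock proteins hold unfolded proteins in a soluble state without using ATP. In flies, heat shock factor, encoded by Hsf, drives transcription of both classes on heat, and the inducible Hsp70 genes are a textbook case of a polymerase held just after the start site until that factor arrives. The small heat shock genes are also expressed in unheated animals during development, in part in response to the moulting hormone ecdysone.

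The 6 Hsp70 copies lie in clusters on chromosome arm 3R (dm6 coordinates of the count table). Hsp70Aa, at 11954163 to 11956544 on the minus strand, and Hsp70Ab, at 11958535 to 11960909 on the plus strand, are transcribed away from each other, from start sites 1991 bases apart. Further along the arm lie Hsp70Ba (12465453 to 12467776, minus strand) and a tandem run on the plus strand of Hsp70Bbb (12502510 to 12504856), Hsp70Bb (12505793 to 12508139) and Hsp70Bc (12509076 to 12511461). The starts of the tandem copies were 3283 bases apart in both steps. Hsp68 is alone at 24055080 to 24057310 on 3R. The small heat shock genes share a group on 3L, with Hsp26 at 9376418 to 9377427 on the minus strand, Hsp23 at 9381882 to 9382765 and Hsp27 at 9384063 to 9385694, both on the plus strand. None of the 10 genes shares an exon base with another gene on its own strand. Because the Hsp70 copies are near identical, and pairs of reads that map to several places are not counted, the count of a copy holds only pairs that could be placed at that copy, and its level and its share are uncertain. Parts of Hsp70 genes are also common in fly transgene vectors; the vectors used are not given in the sources used here, and the counts do not part an endogenous gene from a transgene that holds the same sequence.

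The counted read pairs per library lay between 16395675 and 19966431 in dTet and between 18306991 and 20242356 in control, and 0.53% to 1.04% of the pairs of a library fell on the 10 genes. Tet itself stood at 365, 457 and 416 CPM (counts divided by library size, scaled by the TMM method of edgeR) in dTet discs and at 316, 348 and 385 CPM in control discs (edgeR adjusted p = 0.244, not past the test). The 9 markers of eye-antennal discs were all tested, with 3 higher and 6 lower in dTet, and their summed level was 1274 to 1332 CPM in dTet and 1866 to 2073 CPM in control. The 8 markers of photoreceptors and neurons all fell, with a summed level of 82.6 to 84.2 CPM in dTet and 1029.8 to 1123 CPM in control. In whole discs, fewer cells of a type and less RNA per cell cannot be told apart.

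None of the 10 genes differed between dTet and control discs by edgeR's quasi-likelihood test at an adjusted p under 0.05, where 11.4% of the 9417 genes tested did. All 10 passed the filter on low counts. At an unadjusted p under 0.05 there were 2, Hsp26 and Hsp27, against 28.8% of all tested genes, and DESeq2 and limma-voom likewise called 0 of the 10 (18.4% and 11.9% of all tested genes). The fitted log2 fold change (dTet over control) was above 0 for 3 of them and below 0 for 7, with a median of -0.15, beside a median of -0.02 over all tested genes. In 1 of the 10, Hsp27, the libraries of the groups did not overlap, as was the case for 32.6% of all tested genes. This changed without control replicate 1, when 3 of the 10 were called, Hsp27 higher and Hsp26 and Hsp70Bc lower, in a fit that called 33.3% of all 9693 genes tested (14.5% higher and 18.8% lower). With replicate 1 left out of both groups the same 3 genes passed in the same directions, beside 13.2% of all genes higher and 17.4% lower. Without a filter on low counts Hsp26 was lower, beside 7.28% of all genes. With the replicate number as a block, Hsp70Bc and Hsp26 were lower, beside 6.62% of all genes. No label says whether libraries of the same number share anything else.

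**Figure D1:**
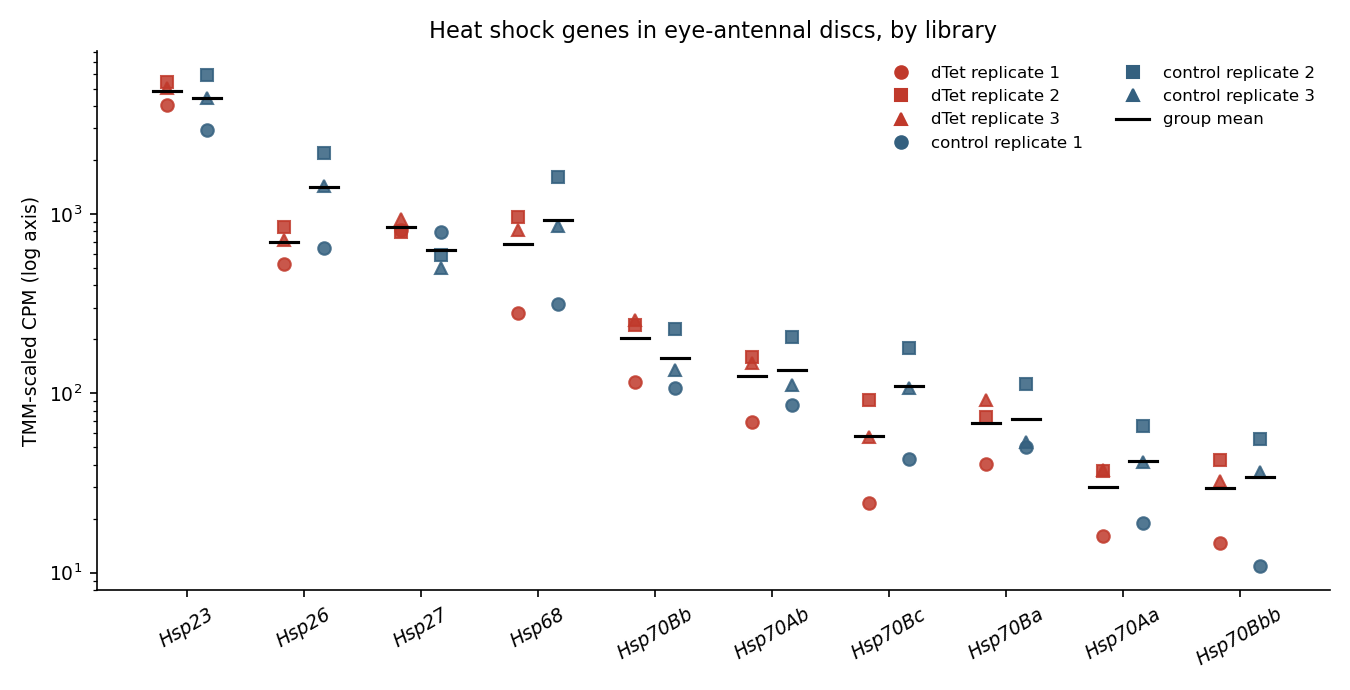
Level of each of the 10 heat shock genes in TMM-scaled CPM on a log axis, with dTet (red) left of control (blue), a marker shape per replicate number and a black bar at the group mean (n = 3 each). The circles, replicate 1, are the lowest of their group for every gene except Hsp27.

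Hsp70Bb, the copy with the highest level, was measured at 115, 239.9 and 257 CPM in dTet discs, against 107, 229.6 and 136 CPM in control discs. In both groups replicate 1 was lowest, and the groups overlapped. Its mean was 204 ± 77.6 CPM in dTet and 157 ± 64.3 CPM in control (SD, n = 3 each), with a log2 fold change of 0.38 (95% interval -0.38 to 1.13, edgeR adjusted p = 0.487). Hsp70Ab, the next copy by level, had 68.9, 158 and 148 CPM in dTet discs, against 86.3, 207 and 111 CPM in control discs. Replicate 1 was lowest on both sides, and the groups overlapped. Hsp70Bc had 24.4, 91.7 and 57.0 CPM in dTet discs, against 42.8, 178 and 107 CPM in control discs. Its groups overlapped too, with a log2 fold change of -0.92 (95% interval -2.11 to 0.27, edgeR adjusted p = 0.285), the furthest from 0 among the copies. With the replicate number as a block, Hsp70Bc passed (-0.89, edgeR adjusted p = 0.00236). Hsp70Ba, the plus-strand run's neighbour on the other strand, had 40.2, 73.8 and 91.5 CPM in dTet discs, against 49.9, 112 and 53.7 CPM in control discs. The copies with the lowest levels were Hsp70Aa and Hsp70Bbb. Hsp70Aa had 15.96, 36.8 and 37.3 CPM in dTet discs, against 18.9, 66.0 and 41.5 CPM in control discs. Hsp70Bbb had 14.6, 42.2 and 32.3 CPM in dTet discs, against 10.9, 55.5 and 36.3 CPM in control discs. All 3 overlapped between the groups, with replicate 1 lowest on both sides, and their log2 fold changes were -0.07 for Hsp70Ba, -0.48 for Hsp70Aa and -0.20 for Hsp70Bbb (edgeR adjusted p from 0.492 to 0.916). For Hsp70Ab the log2 fold change was -0.11 (edgeR adjusted p = 0.87).

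Summed over the 6 copies, Hsp70 stood at 279, 643 and 623 CPM in dTet discs, against 315, 849 and 484 CPM in control discs. The control libraries reached both above and below the higher dTet libraries. A sum is less tied to how pairs were divided among the copies. Its log2 fold change was -0.10 (95% interval -0.97 to 0.76, edgeR adjusted p = 0.882), an interval that runs from 0.51-fold to 1.70-fold. The sign of this value turned when dTet replicate 1 (0.19) or control replicate 2 (0.36) was left out.

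Hsp68, an inducible member of the Hsp70 family away from the clusters, was at 279, 961 and 811 CPM in dTet discs, against 315, 1606 and 859 CPM in control discs. Replicate 1 was the lowest of its group on both sides, by a wide margin. The mean was 684 ± 359 CPM in dTet and 926 ± 649 CPM in control (SD, n = 3 each), with a log2 fold change of -0.44 (95% interval -1.70 to 0.82, edgeR adjusted p = 0.64), and the sign turned without control replicate 2 (0.21).

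Hsp23 had by far the highest counts, with 4046, 5434 and 5036 CPM in dTet discs, against 2939, 5938 and 4459.9 CPM in control discs. The dTet libraries lay inside the range of the control libraries. The log2 fold change was 0.12 (95% interval -0.43 to 0.67, edgeR adjusted p = 0.774), and it turned to -0.12 without control replicate 1. Hsp26 was at 524, 846 and 713 CPM in dTet discs, against 643, 2189 and 1426 CPM in control discs. Control replicate 1 was the lowest control and fell among the dTet libraries, while the other controls lay above all 3. The mean was 694 ± 162 CPM in dTet and 1419 ± 773 CPM in control (SD, n = 3 each), a log2 fold change of -1.03 (SE 0.37, 95% interval -1.87 to -0.19) with an edgeR adjusted p of 0.11. Leaving out control replicate 1 gave a log2 fold change of -1.40 with an adjusted p of 0.000662, and testing without a filter on low counts gave an adjusted p of 0.0246. With the replicate number as a block the edgeR adjusted p was 0.0362.

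Hsp27 had a fitted change of the opposite sign to that of Hsp26, and its libraries varied least. It was at 817, 795.3 and 937 CPM in dTet discs, against 795.1, 589 and 501 CPM in control discs. Each dTet library stood above each control library, but dTet replicate 2 and control replicate 1 were nearly level. The mean was 849.9 ± 76.2 CPM in dTet and 628 ± 151 CPM in control (SD, n = 3 each), a log2 fold change of 0.44 (SE 0.17, 95% interval 0.04 to 0.83, edgeR adjusted p = 0.138). Without control replicate 1 the log2 fold change was 0.62 (adjusted p = 0.00145).

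Per kilobase of exon, the order of the mean levels in dTet discs was Hsp23 (5474 CPM per kb), Hsp26 (688), Hsp27 (521), Hsp68 (306), then the copies Hsp70Bb (86.9), Hsp70Ab (52.6), Hsp70Ba (29.5), Hsp70Bc (24.2), Hsp70Bbb (12.67) and Hsp70Aa (12.60). In control discs the order was Hsp23 (5029 CPM per kb), Hsp26 (1405), Hsp68 (415), Hsp27 (385), Hsp70Bb (66.997), Hsp70Ab (56.7), Hsp70Bc (45.8), Hsp70Ba (31.0), Hsp70Aa (17.7) and Hsp70Bbb (14.6). Hsp23 stood clear of Hsp26 in both groups, and the lowest of Hsp23, Hsp26, Hsp27 and Hsp68 stood clear of the highest Hsp70 copy as counted. Among neighbours in the rest of the order the libraries overlapped, apart from Hsp27 and Hsp68 in dTet discs, where the lowest Hsp27 library (487 CPM per kb) was above the highest Hsp68 library (431). The rank of the Hsp70 copies below the other genes is uncertain. A copy was credited only with pairs placed at it alone, while the divisor was its full exon length. Before division by length, the summed Hsp70 copies overlapped Hsp68. They had 279 to 643 CPM in dTet discs, against 279 to 961 CPM for Hsp68. In control discs the ranges were 315 to 849 CPM and 315 to 1606 CPM. For scale, the constitutive cognate Hsc70-4, the main cytosolic Hsp70 protein of unheated cells, was at 2255 CPM per kb in dTet and 1891 CPM per kb in control.

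**Figure D2:**
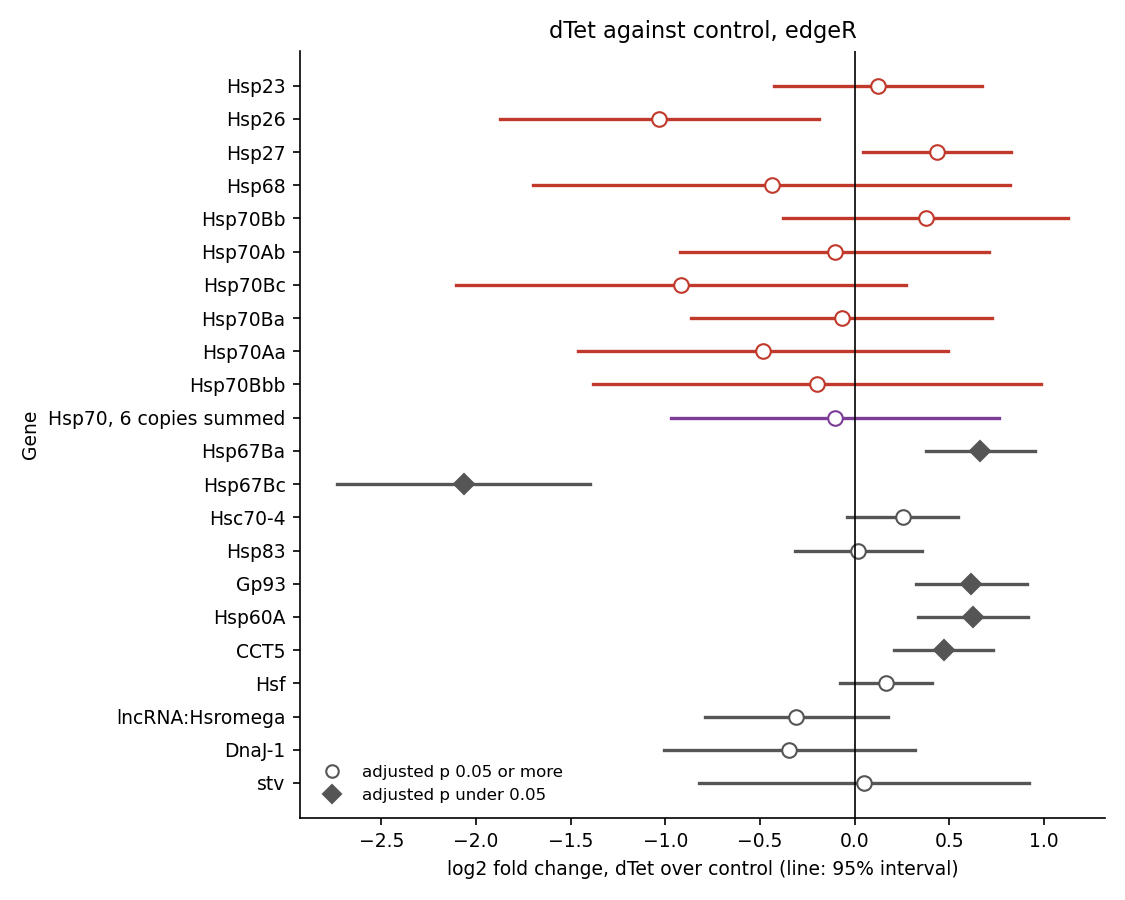
Log2 fold change of dTet over control with its 95% interval for the 10 genes (red), the 6 Hsp70 copies summed (purple) and related chaperone and regulator genes (grey); filled diamonds passed an edgeR adjusted p of 0.05. The intervals of 8 of the 10 genes span 0, those of Hsp26 and Hsp27 do not, and none of the 10 passed after adjustment.

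The libraries of one group stood far apart in most of these genes. The highest library stood above the lowest by 3.45-fold in dTet and 5.11-fold in control for Hsp68, by 2.30-fold in dTet and 2.69-fold in control for the summed Hsp70 copies, by 1.61-fold in dTet and 3.41-fold in control for Hsp26, and by 1.18-fold in dTet and 1.59-fold in control for Hsp27. On the log2 CPM scale, the SD within groups was 1.08 for Hsp68, 0.61 to 1.02 for the Hsp70 copies, 0.68 for Hsp26, 0.39 for Hsp23 and 0.26 for Hsp27, beside a median of 0.16 over the 4781 tested genes whose mean log2 CPM reached 5. Of those abundant genes, 0.125% had a larger spread than Hsp68, 0.167% a larger one than Hsp70Bc, 4.25% a larger one than Hsp23 and 17.2% a larger one than Hsp27.

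The spread had the same order in nearly all of them. In 9 of the 10 genes, Hsp27 being the exception, replicate 1 was the lowest library of both dTet and control, and replicate 2 was the highest control. Over all tested genes 5.83% had that order, a pattern looked for after it was seen in these genes. Labels and files name no batch. The libraries at the low end were the shallowest of all, dTet replicate 1 (16395675 pairs), and the deepest, control replicate 1 (20242356 pairs). Markers of fat body summed to 1607, 674 and 482 CPM in dTet discs and to 1916, 664 and 2706 CPM in control discs, with none of the 7 genes past the test by edgeR, DESeq2 or limma-voom (1 at an unadjusted p under 0.05). The highest sum was that of replicate 1 in dTet and of replicate 3 in control. Markers of muscle summed to 937, 1313 and 1062 CPM in dTet and to 801, 868 and 893 CPM in control, lowest in replicate 1 on both sides. By edgeR 2 of 8 were higher in dTet and 0 lower, beside 3.77% higher over all tested genes. At an unadjusted p under 0.05 there were 5, and DESeq2 called 3 higher and limma-voom 2. The part of fat body or muscle in the spread of the heat shock genes was not tested.

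Genes outside the 10 with the most similar profile over the 6 libraries included other heat shock genes. Likeness was the root mean square difference of log2 CPM after each gene was centred on its own mean, and the 3 closest genes were taken for each heat shock gene. For the summed Hsp70 copies the closest gene of all those tested was DnaJ-1, a heat-inducible Hsp40 co-chaperone of Hsp70, at a distance of 0.20 on the log2 scale, followed by CG42615 and CG34229. DnaJ-1 was also among the closest to Hsp70Ab (0.18) and Hsp70Aa (0.27). stv, which encodes a BAG co-chaperone of Hsp70, was among the closest to Hsp70Bbb (0.26). For Hsp68 the closest was the alphagamma-element RNA CR32865 (0.29), a heat-inducible noncoding RNA that is transcribed 7560 bases from Hsp70Ba. DnaJ-1 was at 254, 492 and 439.6 CPM in dTet discs, against 335, 699 and 471 CPM in control discs. stv was at 50.5, 104 and 90.8 CPM in dTet discs, against 35.3, 112 and 89.7 CPM in control discs. The alphagamma-element RNA was at 5.20, 21.4 and 21.2 CPM in dTet discs, against 9.15, 51.3 and 29.3 CPM in control discs. All of these had replicate 1 lowest in both groups and control replicate 2 highest, which follows from choosing them by likeness and is no separate result. Their edgeR adjusted p-values between dTet and control were 0.468, 0.95 and 0.363, and the same choice bears on these values. The closest to Hsp70Ba was the cell death gene rpr (0.22), before CG8066 and et, and et and CG42615 were close to Hsp70Ab as well. The closest to Hsp70Bb were CG42615, Cc2d2a and l(1)G0469, to Hsp70Bc e(y)2b, lncRNA:CR45212 and CG33460, and to Hsp70Aa CG34229 and CG1572 besides DnaJ-1. Hsp70Bbb had Cpr78E and Pkd2 besides stv, and Hsp68 had lncRNA:CR45212 and CG34229 besides the alphagamma-element RNA. PrBP, CG11700 and CG17193 were closest to Hsp23, and CG33169, CG14104 and CG7130 to Hsp26. The closest genes to Hsp27 were CG8611 (0.02), the elongation factor gene Spt5 (0.04) and unc-45 (0.04), which encodes a chaperone of myosin. Some of these genes had few counts: e(y)2b lay between 0.0598 and 0.547 CPM in dTet and between 0.233 and 0.948 CPM in control. Over the 6 libraries Pkd2 lay between 0.09 and 0.742 CPM and CG17193 between 0.233 and 0.613 CPM. For lncRNA:CR45212 the range was 0.419 to 3.01 CPM.

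**Figure D3:**
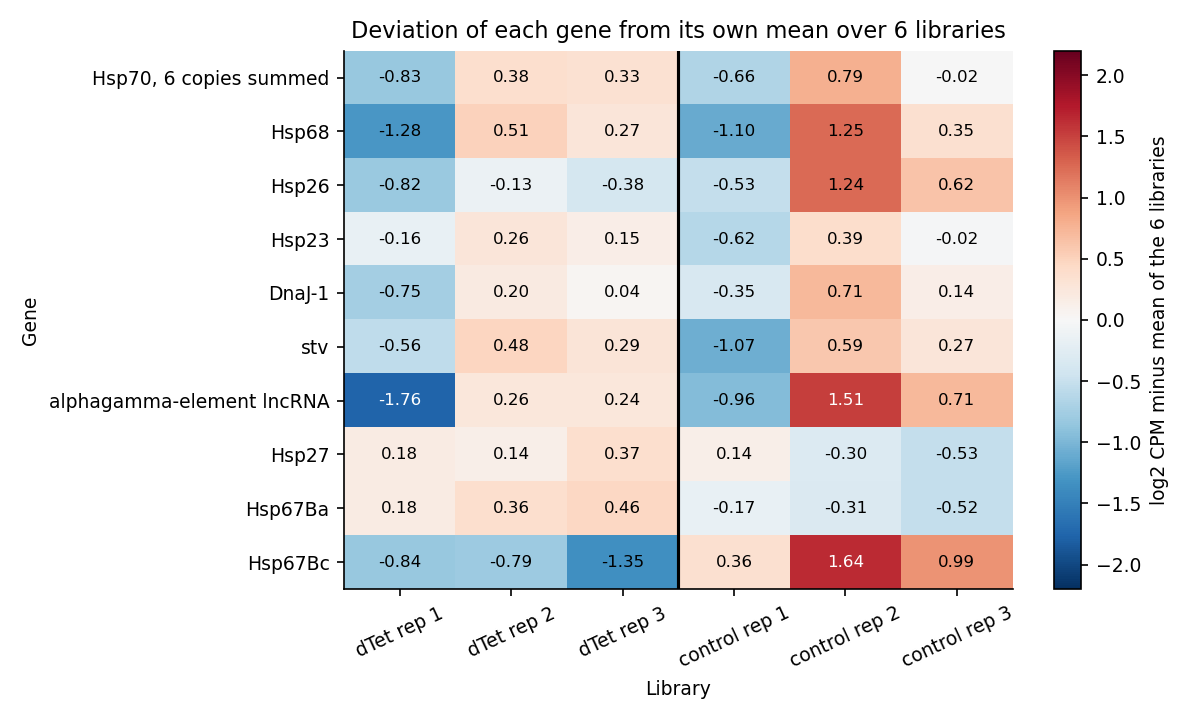
Deviation of log2 CPM from the mean of the 6 libraries for heat shock genes, with dTet libraries left of the line and control libraries right of it; blue is below and red above the mean. Replicate 1 of both groups is blue from the summed Hsp70 copies down to the alphagamma-element RNA. Hsp27 and Hsp67Ba are above their mean in all 3 dTet libraries, and Hsp26 and Hsp67Bc are below theirs in all 3.

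Ratios within a library do not depend on scaling. The ratio of Hsp26 to Hsp23 counts was 0.130, 0.156 and 0.142 in dTet discs, against 0.219, 0.369 and 0.320 in control discs. The groups did not overlap, and in both groups the ratio varied less between libraries than the level of Hsp26 did. The mean ratio was 0.142 ± 0.0131 in dTet and 0.302 ± 0.0765 in control (SD, n = 3 each; two-sided exact permutation p = 0.1, the smallest that 3 against 3 libraries allow, 0.25 adjusted over 5 ratios). Of the 5 ratios computed between these genes, this one and its inverse were the ones without overlap. They are the same comparison entered under both forms, which makes the adjusted p smaller. The ratio of Hsp68 to the summed Hsp70 copies was 0.998, 1.4955 and 1.30 in dTet discs, against 0.997, 1.89 and 1.77 in control discs (exact permutation p = 0.5). It overlapped, and was lowest in replicate 1 on both sides.

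The division of the Hsp70 counts among the copies also differed between libraries. Hsp70Bb held 41.2%, 37.3% and 41.3% of them in dTet discs, against 33.8%, 27.1% and 27.99% in control discs. The lowest dTet share had an exact 95% counting interval of 36.4% to 38.2%. The highest control share had one of 32.7% to 34.9%, and these intervals did not overlap. The mean share was 39.9% ± 2.25 in dTet and 29.6% ± 3.65 in control (SD, n = 3 each), a difference of 10.3 percentage points (two-sided exact permutation p = 0.1, the smallest possible, 0.4 adjusted over 6 copies). Hsp70Bc held 8.74%, 14.3% and 9.16% in dTet discs, against 13.6%, 21.0% and 22.0% in control discs. Its groups overlapped, through dTet replicate 2 and control replicate 1 (exact permutation p = 0.2). Hsp70Ab kept 23.7% to 24.7% in dTet and 22.8% to 27.4% in control, and the shares of Hsp70Ba, Hsp70Aa and Hsp70Bbb overlapped between the groups as well. Shares rest on 4668 to 12746 pairs per library in dTet and on 6757 to 15220 in control. The intervals treat pairs as independent, which pairs without molecular identifiers are not, and they leave out pairs that map to several copies. Only dTet larvae carried UAS-dTet, and whether transgene sequence added to the count of a copy was not tested.

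**Figure D4:**
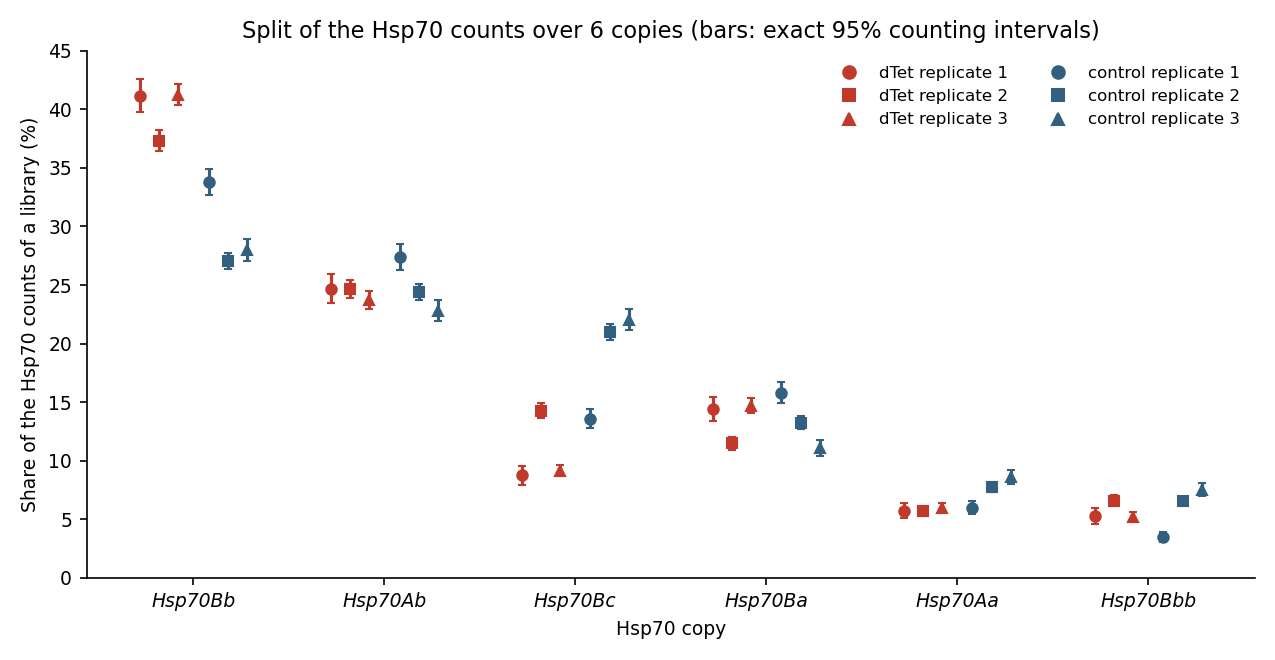
Share of the Hsp70 counts of each library that fell on each of the 6 copies, in percent, with dTet (red) left of control (blue) and exact 95% counting intervals as bars. For Hsp70Bb the dTet libraries lie at 37.3% to 41.3% and the control libraries at 27.1% to 33.8%; for the other copies the groups overlap.

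Within 10 kb of the 10 genes lay 35 other genes, of which 27 were tested; 2 were higher and 3 lower in dTet, beside 3.77% higher and 7.64% lower among all tested genes. In the 3L group, Hsp67Bc, a small heat shock gene 3921 bases from Hsp26, fell to 51.1, 52.8 and 35.9 CPM in dTet discs, against 118, 286 and 182 CPM in control discs. Every dTet library was below every control. The log2 fold change was -2.07 (SE 0.30, edgeR adjusted p = 0.00204), a 4.19-fold fall, and it passed in each of the other fits. Hsp67Ba, a small heat shock gene between Hsp26 and Hsp23, rose to 315, 358 and 384 CPM in dTet discs, against 248, 224 and 195 CPM in control discs. Its log2 fold change was 0.66 (SE 0.13, edgeR adjusted p = 0.00991; 0.0599 without dTet replicate 3). Of its 1733 exon bases, 1316 lie opposite the antisense RNA asRNA:CR43481, which had 2.24 to 5.85 CPM over all 6 libraries. Neighbouring genes of the 3L group thus differed in opposite directions.

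**Figure D5:**
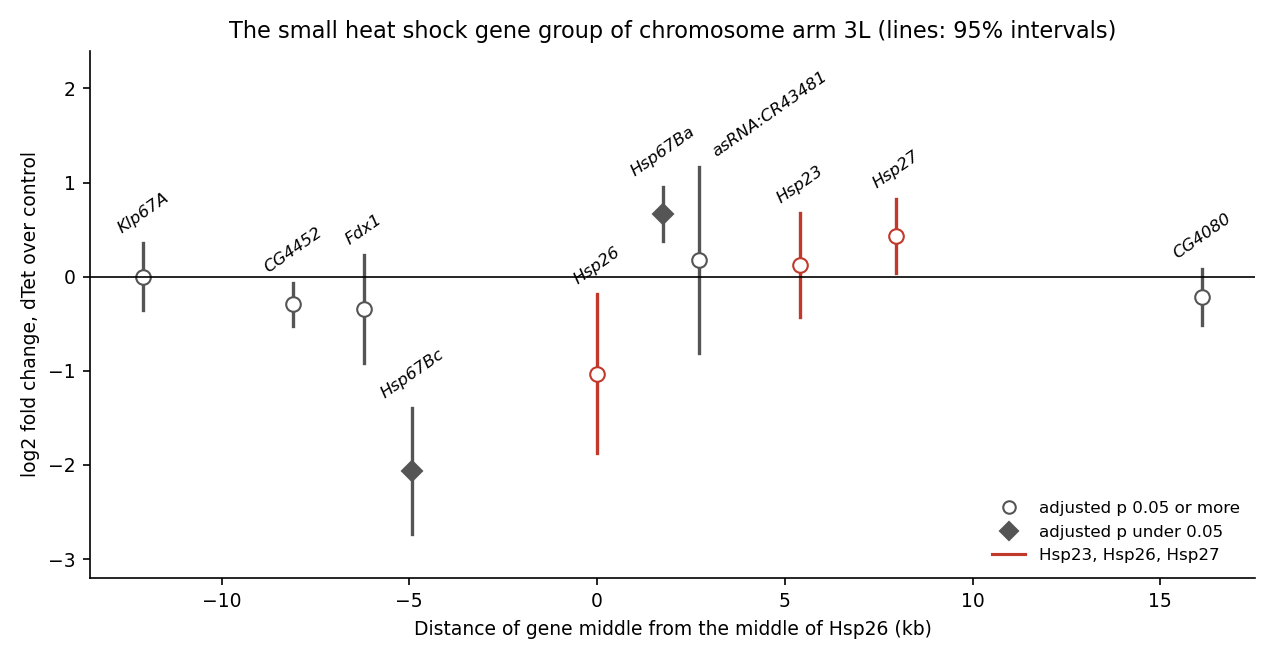
Log2 fold change of dTet over control with its 95% interval for the tested genes around the small heat shock group of 3L, placed by the distance of their middle from that of Hsp26 in kb. Filled diamonds passed an edgeR adjusted p of 0.05: Hsp67Bc at -2.07 and Hsp67Ba at 0.66, with Hsp26 at -1.03 and Hsp27 at 0.44 not past the test.

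Hsp22, the small heat shock gene of mitochondria, had 0 counts in every library. All 1900 of its exon bases are shared on the same strand with CG4456 (also called Hsp67Bb), which had 20 counts in all, and pairs that overlap more than 1 gene are not counted, so this 0 does not measure Hsp22. CG4461, 125 bases from Hsp26, shares no base with another gene and had 5 counts in all. The noncoding CR43482, 418 bases from Hsp27, was not tested because too few libraries had enough counts. It had 1.85, 0.0546 and 23.2 CPM in dTet discs and no count in control discs. Of its 507 counts, 475 came from dTet replicate 3. Around the Hsp70 copies, Octbeta3R, a receptor gene for octopamine 109 bases from Hsp70Bc, fell to 0, 0.656 and 0.0978 CPM in dTet discs, against 4.34, 4.07 and 5.20 CPM in control discs. Its log2 fold change of -4.13 (edgeR adjusted p = 0.0187) was -6.25 without dTet replicate 2, and the call ended without dTet replicate 3 (0.0748) or control replicate 3 (0.0823). CG18549 rose (log2 fold change 0.55, edgeR adjusted p = 0.0445), a call that ended without any 1 library except control replicate 1, and CG5986, near Hsp68, fell (-0.83, adjusted p = 0.00614).

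The rest of the heat shock pathway is given by list, each beside the 11.4% called over all tested genes. Of the other small heat shock genes 4 were tested, with Hsp67Ba higher and Hsp67Bc lower (median log2 fold change 0.55). l(2)efl had a log2 fold change of 0.69 and stayed short of the threshold (edgeR adjusted p = 0.0893).

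Of 5 tested Hsp70 cognates and Hsp110 genes, edgeR called 0, with 4 at an unadjusted p under 0.05; DESeq2 called 4 higher and limma-voom 1. All 5 fitted values were above 0 (median 0.42). Hsc70-4 was at 6084, 6132 and 6161 CPM in dTet discs, against 5198, 5334 and 4872 CPM in control discs. Its dTet libraries stood above all controls, with a log2 fold change of 0.25 (SE 0.13, edgeR adjusted p = 0.232). The mitochondrial cognate Hsc70-5 had a log2 fold change of 0.42 (adjusted p = 0.0501; 0.045 with the size factors of DESeq2 as scaling). In the Hsp90 family 1 of 3 rose: Gp93, the Hsp90 protein of the endoplasmic reticulum, at 695, 665 and 734 CPM in dTet discs, against 508, 388 and 469 CPM in control discs (log2 fold change 0.62, SE 0.13, edgeR adjusted p = 0.0144). Hsp83, the cytosolic Hsp90, was at 4778 ± 630.0 CPM in dTet and 4714 ± 237 CPM in control (log2 fold change 0.02, 95% interval -0.32 to 0.35, edgeR adjusted p = 0.945). Its value lay below 0 in some of the other fits.

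Among the chaperonins edgeR called 2 of 9 higher and none lower (7 at an unadjusted p under 0.05; median log2 fold change 0.34, with all 9 fitted values above 0; DESeq2 called 6 higher and limma-voom 4, and neither called any lower). Hsp60A, the mitochondrial chaperonin, was at 583, 600.1 and 588 CPM in dTet discs, against 451, 357 and 341 CPM in control discs. All dTet libraries were above all controls (log2 fold change 0.62, SE 0.13, edgeR adjusted p = 0.0138). CCT5, a subunit of the cytosolic chaperonin, had a log2 fold change of 0.47 (adjusted p = 0.0312). The calls of Gp93 and Hsp60A ended without any dTet library or control replicate 3 (adjusted p from 0.0505 to 0.0842), and that of CCT5 without any library except control replicate 1 (0.0913 to 0.132).

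Of 14 co-chaperones edgeR called 0 (2 at an unadjusted p under 0.05; DESeq2 1 lower and limma-voom 0; median log2 fold change 0.07). The smallest adjusted p was that of mrj, a J-domain gene, at 0.0658 with a log2 fold change of -0.46. Of 15 genes for heat shock factor and for factors of polymerase pausing and elongation edgeR called 0 (4 at an unadjusted p under 0.05; DESeq2 1 higher and limma-voom 0; median log2 fold change -0.0042). Hsf was at 179.7, 181.4 and 180.6 CPM in dTet discs, against 179.2, 149 and 155 CPM in control discs. The groups did not overlap, by a narrow margin, and the log2 fold change was 0.17 (SE 0.11, edgeR adjusted p = 0.339). The heat-inducible noncoding RNA lncRNA:Hsromega was at 609, 911 and 737 CPM in dTet discs, against 665, 1004 and 1126 CPM in control discs. These overlapped, with replicate 1 lowest on both sides (log2 fold change -0.31, edgeR adjusted p = 0.373). Spt6, an elongation factor, had the smallest adjusted p, 0.0776, at 0.44. Without control replicate 1, Hsf (0.23, adjusted p = 0.0482) and lncRNA:Hsromega (-0.52, adjusted p = 0.018) passed. That fit called 33.3% of all 9693 genes tested, and 6 genes of this list higher and 3 lower.

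Of 12 genes of the unfolded protein response edgeR called 0 (5 at an unadjusted p under 0.05; DESeq2 1 higher and limma-voom 0; median log2 fold change 0.16), and Pdi, a disulfide isomerase, came closest (0.40, adjusted p = 0.0754). Of 11 other stress genes egr, the fly tumour necrosis factor, fell to 27.6 ± 1.86 CPM in dTet, against 52.0 ± 8.2 CPM in control (SD, n = 3 each; log2 fold change -0.92, edgeR adjusted p = 0.00377), and edgeR called none higher (3 of the 11 at an unadjusted p under 0.05; DESeq2 1 higher and 1 lower, limma-voom 0 higher and 1 lower; median -0.07). Of 17 genes of the ecdysone response edgeR called 3 higher and none lower, as did limma-voom, and DESeq2 called 4 higher and none lower (5 at an unadjusted p under 0.05; median 0.09). ImpE1, an ecdysone-induced gene of discs, was at 343, 454 and 419 CPM in dTet discs, against 206, 184 and 213 CPM in control discs, which did not overlap (log2 fold change 1.01, SE 0.13, edgeR adjusted p = 0.00105). The nuclear receptor genes Hr4 and Eip78C had log2 fold changes of 0.96 (adjusted p = 0.00349) and 0.63 (adjusted p = 0.0479); the call of Eip78C ended without any library except control replicate 1. The receptor gene EcR itself did not pass (0.09, adjusted p = 0.574).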

How the data were processed

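The libraries were stranded and made from total RNA of eye-antennal discs, per the labels' protocols. The submitters' processing notes name FastQC 0.12.1 and HISAT2 2.2.0 with the dm6 build. The values deposited by the authors are raw counts, whole numbers of read pairs for each gene symbol, from featureCounts 2.0.6 run on exons of FlyBase annotation 6.45 with strand setting 2, per the file headers. The command in the header holds no option to count a pair at several places or for several genes, so such pairs are missing from the counts. The deposited Length column gives the exon bases of a gene.

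The counts were tested with edgeR 4.0.16 in R 4.3.3 on all 6 libraries (filterByExpr by group, TMM scaling, the quasi-likelihood test, no covariates), with Benjamini-Hochberg adjustment over 9417 genes and a threshold of 0.05. An SE is the log2 fold change over the square root of its F. The edgeR p-values set the group difference against the spread between these libraries. Exact permutation p-values of shares and ratios rest on relabelling the 6 libraries and cannot fall below 0.1. Alternatives were DESeq2 1.42.0, limma-voom (limma 3.58.1), other scalings and filters, a threshold of 0.01, the replicate number as a block and each library left out. Replicates 2 and 3 alone were added after the data were seen. The test was checked on simulated counts. Log2 CPM used a prior count of 2.

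The genes and lists were chosen with earlier results of these data known. Named were the 10 genes, list members past the test or with the smallest adjusted p of a list with none, Hsf, lncRNA:Hsromega, Hsc70-4, Hsp83, Hsp22, Tet, genes within 10 kb past the test, and the 3 closest profiles. l(2)efl, EcR, asRNA:CR43481, CG4456, CG4461 and CR43482 were added after values were seen. Of the listed symbols, HspB8, l(2)tid and Ahsa1 were not matched and not used. No sequences were used here.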

Additional observations from a re-analysis of the deposited data

How the results depend on the processing

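Of 165 values of the 10 genes and the summed copies under the other settings, 145 kept their direction and their side of the threshold, 11 changed sign and 9 went past the threshold. Over all genes 1074 were called; DESeq2 called 1733, a threshold of 0.01 left 512, leaving out 1 library gave 560 (control replicate 3) to 3231 (control replicate 1), and replicates 2 and 3 alone gave 2905. Of the 10 genes, 0 were called higher; leaving out 1 library gave 0 to 1, and replicates 2 and 3 alone, a choice made after seeing the data, gave 1 (Hsp27, log2 fold change 0.66, edgeR adjusted p = 0.00541, with 13.2% of all genes higher). Called lower were also 0, against 1 without a filter on low counts (Hsp26), 0 to 2 with 1 library left out and 2 with replicates 2 and 3 alone (Hsp70Bc, adjusted p = 0.033, and Hsp26, adjusted p = 0.00323, with 17.4% of all genes lower).

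The labels do not say whether libraries with the same replicate number share anything else. Deviations of same-numbered libraries correlated at 0.03, 0.02 and -0.10 over genes, and not every library correlated best with its own number. Over the 10 genes alone they correlated at 0.75, 0.85 and -0.27. With the number as a replicate block edgeR called 902 genes, and 2 of the 10 lower, Hsp70Bc (log2 fold change -0.89, adjusted p = 0.00236) and Hsp26 (-0.89, adjusted p = 0.0362), beside 6.62% of all genes lower. The pathway lists held 4, 5, 3, 14, 9, 15, 12, 11 and 17 tested genes in the main fit. Calls among them were 9, beside 11.4% of all genes. DESeq2 called 22 of them (18.4% of all genes), and a threshold of 0.01 left 5 (5.44%). With 1 library left out the calls were 4 to 43, the 43 without control replicate 1 (33.3% of all genes). Replicates 2 and 3 alone gave 38 (30.6% of all genes). The summed Hsp70 copies ranged from -0.39 to 0.36 with 1 library left out. Likewise ranged Hsp70Ab from -0.36 to 0.34, Hsp70Ba from -0.35 to 0.40, Hsp70Bbb from -0.64 to 0.33, Hsp68 from -0.87 to 0.21, Hsp23 from -0.12 to 0.38, Hsp83 from -0.062 to 0.11 and stv from -0.32 to 0.38. Hsp70Bbb was at 0.035 with limma-voom, Hsp83 at -0.0013 without a filter, and stv at -0.060 in replicates 2 and 3 alone. The signs of Hsp70Aa, Hsp70Bb, Hsp70Bc, Hsp26 and Hsp27 did not change under any setting run. The Hsp70Bb share and the Hsp26 to Hsp23 ratio come from counts within a library, so only leaving out libraries can move them: the difference ranged from 9.03 to 12.4 percentage points for the share and from -0.202 to -0.127 for the ratio. The cause of these changes was not tested. The Hsp70 values rest on 3 libraries a group and on 4668 to 15220 counted pairs of a library.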
